A study of Mus musculus with 4 samples.

Results

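ATAC-seq peaks were examined at 5 hormone receptor genes of the mouse aorta, *Nr3c1*, *Nr3c2*, *Esr1* and *Pgr*, which encode the glucocorticoid, mineralocorticoid, estrogen (alpha) and progesterone receptors, and *Oxtr*, which encodes the oxytocin receptor. The peaks were those that touched the body of a receptor gene in GENCODE vM21 or the 50 kb on either side of it. There were 29 such peaks among the 64360 of the 4 deposited lists, and after overlapping peaks were merged they formed 19 regions around 5 of 21938 protein-coding genes. The rule used gene positions, and the receptors themselves were chosen with earlier results of these data known. Aortic nuclei came from untreated mice at P60 (60 days of age), either control (*Col3a1+/+*) or VEDS (*Col3a1G938D/+*), the latter heterozygous for a missense substitution in type III collagen that models vascular Ehlers-Danlos syndrome. There were 2 libraries per genotype, 1 of each sex, each library held tissue of 2 mice, and the nuclei were prepared with a droplet single-cell ATAC kit but analyzed as 1 bulk signal per library. Minced whole aorta contains several cell types, so that an accessible region could not be assigned to one of them, and fewer cells of a type could not be told apart from less accessible DNA per cell.

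The 4 steroid receptors are transcription factors of the nuclear receptor superfamily. The glucocorticoid and mineralocorticoid receptors bind cortisol-like steroids and aldosterone in the cytoplasm, are released from heat shock chaperones, and act in the nucleus on palindromic hormone response elements, to which the progesterone receptor also binds. The estrogen receptor recognizes a palindrome with a different core, and the mineralocorticoid receptor of smooth muscle and endothelial cells is a known regulator of vascular tone and remodeling. The oxytocin receptor is a membrane receptor that couples to Gq proteins and is best known for contraction of uterine smooth muscle. The study is concerned with hormone signaling in VEDS aorta, and the question put to these data was where the genes for the receptors themselves were accessible.

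The sequences of 6 regions are shown from GRCm38 (mm10), as examples of the promoter regions and other regions described for *Nr3c2*, *Esr1*, *Pgr* and *Oxtr*. Not every region described for these genes is shown. Each is the 300 bp around the summit of the VEDS male peak, written 5′ to 3′ along the receptor gene and lying outside its exons. Capitals mark exact matches to a consensus on either strand, and the regions of a gene are numbered 5′ to 3′. *Nr3c2* region 1 (chr8:76901965-76902264, plus strand) is the promoter with the highest-ranked peak of the set, with CCAAT boxes (NFY) and GC boxes (GGGCGG, SP/KLF). *Esr1* region 3 (chr10:4620987-4621286, plus strand) lies in intron 1 and holds the AP-1 site TGAGTCA. *Pgr* region 3 (chr9:8907271-8907570, plus strand) and region 4 (chr9:8927628-8927927, plus strand) are intronic and hold MEF2 and TEAD (GGAATG) matches, and region 4 also holds the hexamer bound by a single receptor of the glucocorticoid group (AGAACA or its complement). In region 4 the CCAAT box and 1 hexamer share their last and first base, so that the capitals run together there. *Oxtr* region 1 (chr6:112510534-112510833, minus strand) lies upstream of the gene and holds the CArG box of SRF and TEAD matches. *Oxtr* region 2 (chr6:112490899-112491198, minus strand) is its promoter region, where a RUNX match was the single one found.
Nr3c2 region 1: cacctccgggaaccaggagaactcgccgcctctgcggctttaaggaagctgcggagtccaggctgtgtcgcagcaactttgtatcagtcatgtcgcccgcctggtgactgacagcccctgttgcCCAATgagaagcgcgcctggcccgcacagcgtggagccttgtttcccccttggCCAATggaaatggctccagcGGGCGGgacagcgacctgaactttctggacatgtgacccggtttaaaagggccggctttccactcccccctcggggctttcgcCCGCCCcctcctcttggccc
Esr1 region 3: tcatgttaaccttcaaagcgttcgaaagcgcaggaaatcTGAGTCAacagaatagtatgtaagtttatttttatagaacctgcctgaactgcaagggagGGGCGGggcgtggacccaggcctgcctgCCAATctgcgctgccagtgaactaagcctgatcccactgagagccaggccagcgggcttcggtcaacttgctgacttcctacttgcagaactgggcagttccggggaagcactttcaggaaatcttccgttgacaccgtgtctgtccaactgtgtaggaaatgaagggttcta
Pgr region 3: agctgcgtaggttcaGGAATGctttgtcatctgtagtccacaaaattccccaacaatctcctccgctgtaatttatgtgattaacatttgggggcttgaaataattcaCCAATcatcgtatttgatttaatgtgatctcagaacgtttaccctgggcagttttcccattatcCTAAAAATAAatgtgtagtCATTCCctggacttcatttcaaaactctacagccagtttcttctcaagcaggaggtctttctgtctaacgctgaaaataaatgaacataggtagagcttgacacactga
Pgr region 4: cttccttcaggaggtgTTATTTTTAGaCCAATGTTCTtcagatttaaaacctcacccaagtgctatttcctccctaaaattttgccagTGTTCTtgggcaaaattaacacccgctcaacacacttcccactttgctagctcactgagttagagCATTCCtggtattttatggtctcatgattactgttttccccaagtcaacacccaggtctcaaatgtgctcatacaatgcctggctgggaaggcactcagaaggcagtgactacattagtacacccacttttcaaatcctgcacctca
Oxtr region 1: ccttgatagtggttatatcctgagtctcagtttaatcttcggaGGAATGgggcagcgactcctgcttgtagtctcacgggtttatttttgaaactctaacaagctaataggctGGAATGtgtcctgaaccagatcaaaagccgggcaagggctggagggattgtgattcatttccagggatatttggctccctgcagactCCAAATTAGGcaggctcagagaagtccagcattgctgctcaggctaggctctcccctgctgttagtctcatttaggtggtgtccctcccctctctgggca
Oxtr region 2: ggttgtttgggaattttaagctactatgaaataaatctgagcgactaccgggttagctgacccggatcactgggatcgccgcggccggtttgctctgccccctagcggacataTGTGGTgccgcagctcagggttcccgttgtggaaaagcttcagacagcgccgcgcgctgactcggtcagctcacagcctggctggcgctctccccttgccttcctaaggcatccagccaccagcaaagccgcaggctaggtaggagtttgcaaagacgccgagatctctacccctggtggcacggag

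The 4 lists differed in length far more than any receptor locus did, with 504 peaks for VEDS female, 1236 for control male, 21176 for control female and 41444 for VEDS male. The median number of fragments at a summit was 6, 7, 14 and 22 in the same order. Over 50% of bases were repeat-masked in 68.8% of the control male peaks, against 3.9% to 27.4% in the other 3 lists. Markers of vascular smooth muscle cells had a promoter peak at 5 of 5 genes in both long lists, endothelial markers at 1 and 3 of 4, fibroblast markers at 2 and 1 of 4, adipocyte and striated muscle markers at 0 and 1 of 3 each, liver markers at 1 of 2 in each, and immune markers at 0 of 4 (control female and VEDS male respectively). No marker gene had a promoter peak in either short list. The long lists differ from each other in genotype, sex and depth at once, and these cannot be told apart. With 2 libraries per genotype the smallest two-sided exact p is 0.333, so genotypes were not tested against each other, and the sexes were not compared.

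Of the 29 receptor peaks, 12 belonged to the control female list, 16 to VEDS male, 1 to control male and 0 to VEDS female. In the control female list, *Nr3c1* had 3 peaks, *Nr3c2* 1, *Esr1* 3, *Pgr* 3 and *Oxtr* 2. In the VEDS male list the numbers were 5 for *Nr3c1*, 1 for *Nr3c2*, 3 for *Esr1*, 4 for *Pgr* and 3 for *Oxtr*. Thus no receptor was without a peak in either long list, and *Esr1* was the single receptor with a peak in a short one. Of the loci of all coding genes, built alike, 27.0% had no peak in the control female list and 19.8% in the VEDS male list. In the short lists 92.0% (control male) and 94.6% (VEDS female) had none. Merged by genotype, the peaks formed 13 regions in control and 16 in VEDS aorta, and each count rested mostly on 1 library. Without the control female library 1 control region was left, and without the VEDS male library 0 VEDS regions were left. The 19 regions comprised 7 at a promoter of the receptor itself (within 3 kb of a TSS), 4 within 3 kb of the TSS of another gene alone and 8 distal ones.

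**Figure D1:**
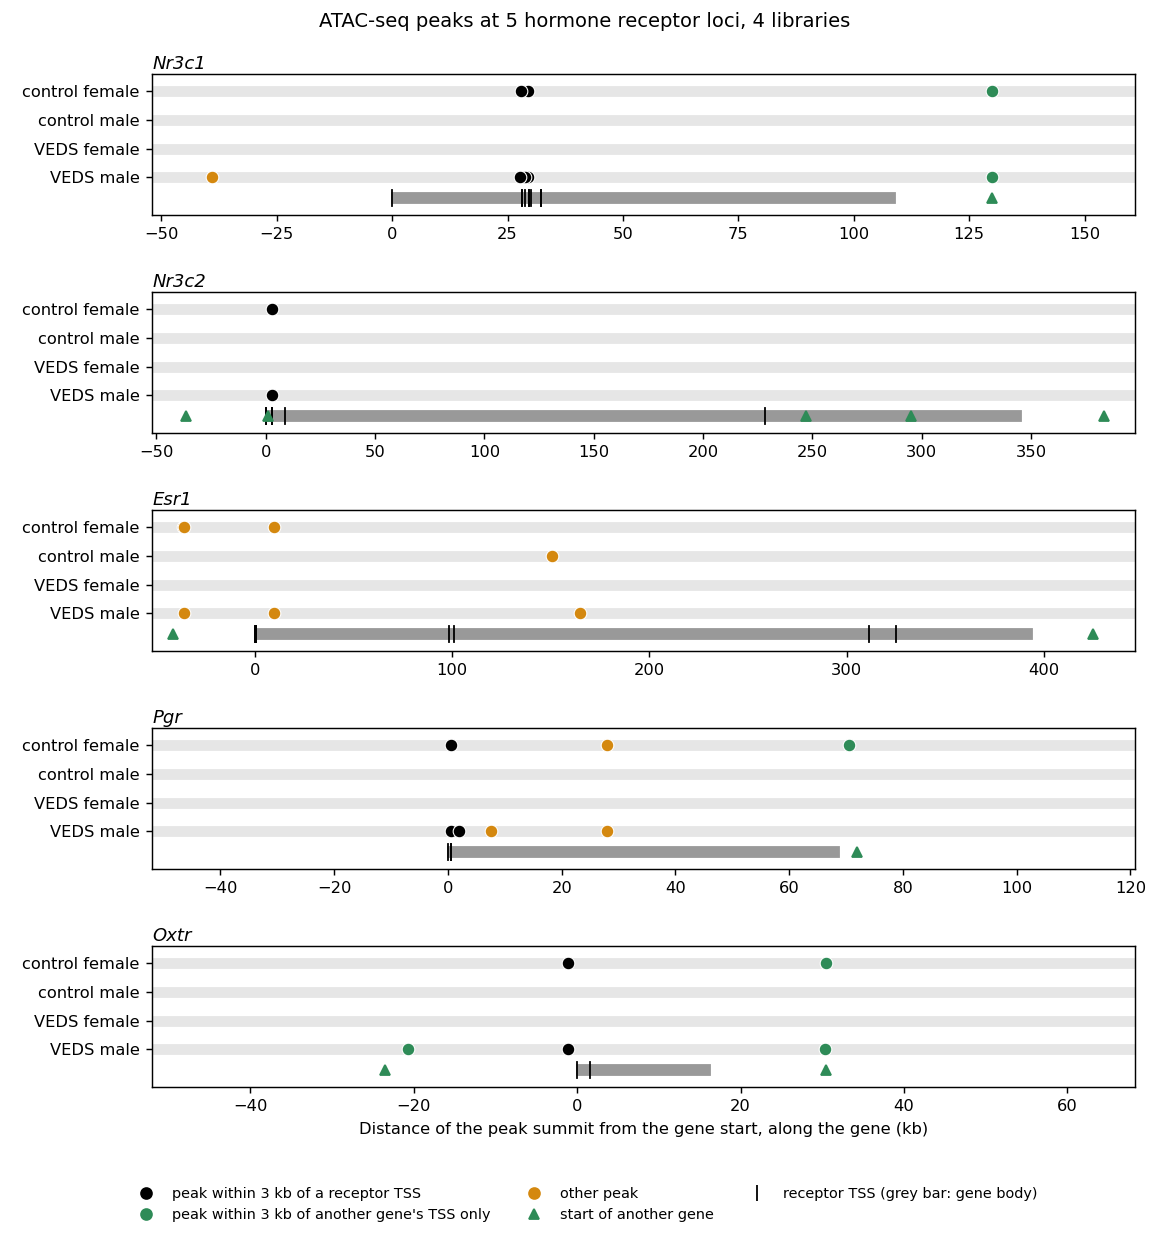
Peak summits at the 5 loci, 1 panel per receptor, with 4 rows for the libraries and the distance from the 5′ end of the gene on the horizontal axis (kb). Grey bars are gene bodies, black ticks annotated receptor TSS and green triangles starts of other genes. Black points are receptor promoter peaks, green points peaks near another gene alone and orange points the rest. The promoter points of *Nr3c1*, *Nr3c2*, *Pgr* and *Oxtr* appear in the control female and VEDS male rows, *Esr1* has no black point, and the control male row has 1 point.

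A promoter peak was found at 4 of the 5 receptors, all but *Esr1*, in the control female list and in the VEDS male list. Among all coding genes, 47.4% had a promoter peak in the control female list, 58.5% in the VEDS male list and 47.2% in both. In the control male list it was 0 of 5 receptors, where 1.56% of coding genes had a promoter peak, and in the VEDS female list 0 of 5, where 1.49% had one. An absence in the short lists was not interpreted, and a region without a peak was not taken as closed. With promoters restricted to 1 kb from a TSS, *Oxtr* lost its promoter peak in the control female list, where the peak began 1048 bp from the TSS, and 3 receptors remained.

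**Figure D2:**
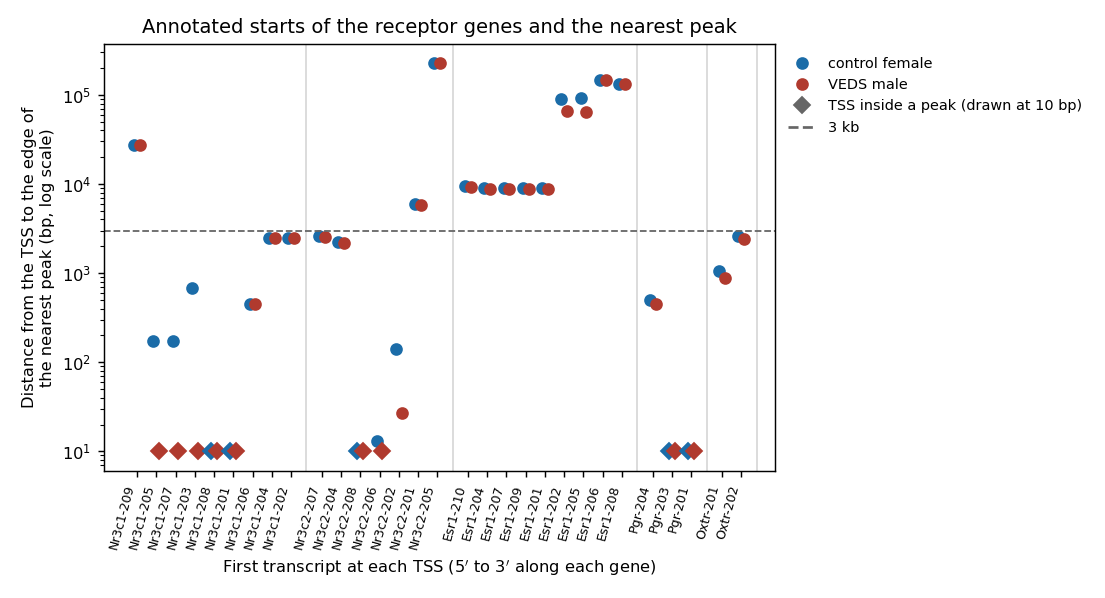
Distance from each of the 30 annotated receptor TSS (horizontal axis, named by the first transcript that starts there) to the edge of the nearest peak, in bp on a log scale. Blue points are the control female list and red points the VEDS male list, diamonds at the bottom stand for a TSS inside a peak, and the dashed line is 3 kb. Peaks covered 5 of the TSS in the control female list and 9 in the VEDS male list, and all points of *Esr1* lie above the line.

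*Nr3c2* had the highest-ranked receptor peak in both long lists, and it was the single peak in a locus of 445.6 kb (gene ENSMUSG00000031618, chr8:76899442-77245012, plus strand). In the control female list the peak (chr8:76902020-76902334) had 33 fragments at its summit, a fold enrichment of 12.7 over the local background and a −log10 q of 27.2, which placed it at rank 1301, in the top 6.14% of that list. The VEDS male peak (chr8:76901966-76902449) had 89 fragments, a fold enrichment of 16.3 and a −log10 q of 76.7, at rank 703, in the top 1.70%. Fold enrichment and −log10 q depend on the depth of a library and were compared only within a list. Of the 7 distinct TSS of *Nr3c2*, the control female peak covered 1, shared by the transcripts Nr3c2-203 and Nr3c2-208, and ended 13 bp before a second, that of Nr3c2-206. The VEDS male peak covered both. The TSS of Nr3c2-207, the 5′ end of the gene record, was 2578 and 2524 bp from the peak in the control female and VEDS male lists, and the internal TSS of Nr3c2-205 was 226 kb from it in both. The region was also within 3 kb of a start of the divergent noncoding RNA gene *Gm10649*, at 1399 bp (control female) and 1345 bp (VEDS male), so that the peak could belong to either gene. Its GC content was 66.0% in the control female window and 63.3% in the VEDS male window, against medians of 56.0% and 53.3% over all windows of these lists. The other starts in the locus, those of the pseudogene *Gm5353*, the small RNA genes *Gm24838* and *Gm23260* and the antisense gene *Gm45406*, had no promoter peak in any list.

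*Esr1* showed the reverse arrangement, with 5 regions and none at a promoter (gene ENSMUSG00000019768, chr10:4611593-5005614, plus strand, 9 distinct TSS). The nearest peak to any *Esr1* TSS lay 9015 bp away in the control female list and 8844 bp in the VEDS male list. This peak, region 3 in intron 1, had 10 fragments, a fold enrichment of 6.39 and a −log10 q of 6.29 in the control female list (chr10:4621036-4621219, top 65.5%). Its VEDS male counterpart had 27 fragments, a fold enrichment of 8.71 and a −log10 q of 17.6 (chr10:4620865-4621438, top 34.2%), the highest −log10 q of the *Esr1* peaks in either long list. Region 2, about 36 kb upstream, was also in both long lists, with 7 fragments and a −log10 q of 3.99 in the control female list (chr10:4575651-4575783, top 84.8%) and with 12 fragments and a −log10 q of 6.1 in the VEDS male list (chr10:4575578-4575826, top 72.3%). Both were thus among the lower-ranked peaks of their lists. The 3 other regions were each in a single list. Region 1, next to region 2 (chr10:4575089-4575302), was in the control female list alone with 5 fragments and a −log10 q of 2.03, in the lowest part of the list (top 98.8%). Region 5 in intron 4 (chr10:4776166-4776323) was in the VEDS male list alone with 12 fragments and a −log10 q of 5.88 (top 74.7%). Region 4, also in intron 4 (chr10:4761452-4763355), was the only receptor peak of a short list, in the control male library, with 10 fragments, a fold enrichment of 8.42 and a −log10 q of 9.24 (top 14.9%). It was 1904 bp wide against a median of 687 bp in that list, and 100% of its bases were repeat-masked. No peak of the locus lay within 3 kb of the start of the pseudogene *Gm3266* or the ribozyme gene *Gm25694*.

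*Pgr* (gene ENSMUSG00000031870, chr9:8899833-8968611, plus strand, 3 distinct TSS) had a low-ranked promoter peak and a higher-ranked intronic one in both long lists. The promoter peak, region 1, covered coding and untranslated sequence of exon 1 and the TSS of Pgr-201, Pgr-202 and Pgr-203. It had 10 fragments and a −log10 q of 4.95 in the control female list (chr9:8900329-8900626, top 76.5%) and 14 fragments and a −log10 q of 4.51 in the VEDS male list (chr9:8900287-8900584, top 82.5%). Region 4 in intron 3, about 27 kb from the nearest TSS, had 11 fragments and a −log10 q of 7.43 in the control female list (chr9:8927590-8927901, top 57.1%). In the VEDS male list it had 25 fragments and a −log10 q of 16.6 (chr9:8927546-8928017, top 36.3%). The intronic region therefore ranked above the promoter in each list. Regions 2 and 3 were in the VEDS male list alone. Region 2 lay in the coding part of exon 1, 1022 bp from a TSS (chr9:8901490-8901847), with 16 fragments and a −log10 q of 5.92 (top 74.5%), and region 3 in intron 2 (chr9:8907335-8907527) with 13 fragments and a −log10 q of 7.07 (top 68.1%). Region 5, downstream of the gene (chr9:8970330-8970458), was in the control female list alone, with 6 fragments and a −log10 q of 3.25 (top 91.1%), and lay 1333 bp from the TSS of the coding gene *Gm16485*.

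*Oxtr* (gene ENSMUSG00000049112, chr6:112473683-112489943, minus strand, 2 distinct TSS) had no peak within its 16.26 kb gene body in any list. Region 2, just upstream, did not reach the TSS. In the control female list it had 10 fragments and a −log10 q of 5.42 (chr6:112490991-112491132, top 72.8%) and lay 1048 bp from the TSS. The VEDS male peak had 17 fragments and a −log10 q of 8.42 (chr6:112490824-112491165, top 60.9%) and lay 881 bp from it, with the summit at the same base in both. Region 1, 20.6 kb upstream and 2.7 kb from the small nuclear RNA gene *Gm27944*, was in the VEDS male list alone, with 18 fragments and a −log10 q of 11.9 (chr6:112510567-112510771, top 48.1%). Region 3 lay at the TSS of the neighbor *Cav3*, which encodes the muscle caveolin and starts 30.4 kb from the start of *Oxtr*. It had 9 fragments and a −log10 q of 4.96 in the control female list (chr6:112459448-112459615, top 76.3%), and 48 fragments and a −log10 q of 37.1 in the VEDS male list (chr6:112459388-112459715, top 13.2%). It ranked below the *Oxtr* promoter region in the control female list and was the highest-ranked peak of the locus in the VEDS male list. *Ckm*, 1 of the 3 striated muscle markers, had a promoter peak in the VEDS male list and not in the control female list, while *Myh6* and *Tnnt2* had one in neither, and the part of striated muscle in the *Cav3* peaks was not tested.

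**Figure D3:**
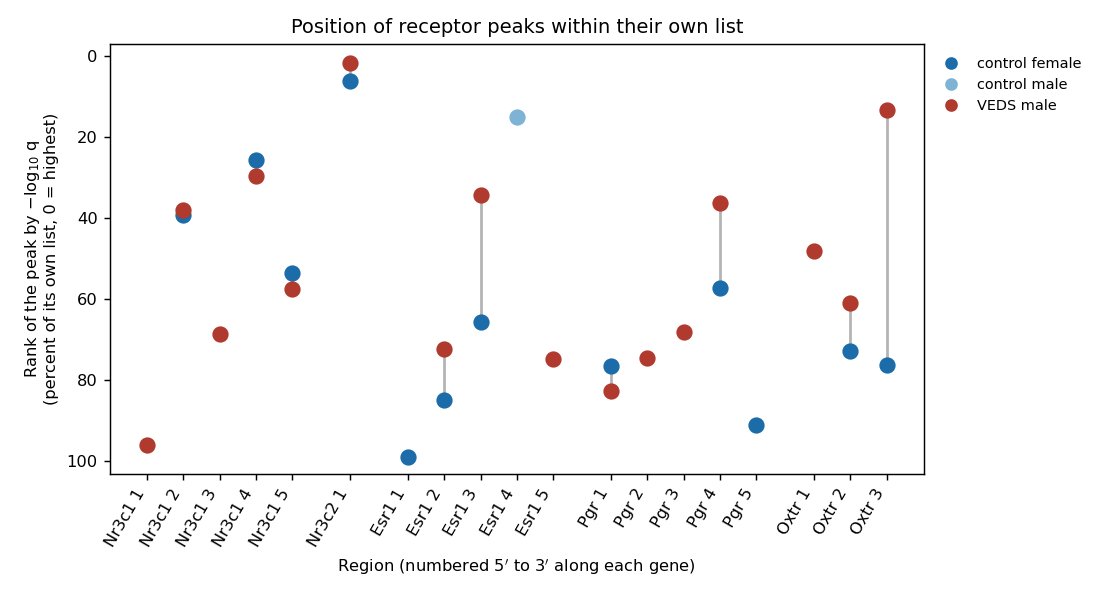
Rank of each of the 29 peaks by −log10 q, as a percent of its own list (vertical axis, 0 at the top is the highest rank), for the 19 regions numbered 5′ to 3′ along each gene. Blue points are control female, light blue control male and red VEDS male peaks, and grey lines join the peaks of 1 region. *Nr3c2* 1 sits at 6.14% and 1.70%, and *Oxtr* 3, the *Cav3* promoter, at 76.3% and 13.2%. The lists differ in length and depth, so that a gap between 2 points of a region is not a measured difference.

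*Nr3c1* had 5 regions, 3 of them at its clustered promoters (gene ENSMUSG00000024431, chr18:39410545-39519421, minus strand, 9 distinct TSS). Region 4 covered the TSS of Nr3c1-201 and Nr3c1-208 in both long lists. It had 25 fragments and a −log10 q of 14.4 in the control female list (chr18:39489729-39490001, top 25.7%) and 44 fragments and a −log10 q of 20.4 in the VEDS male list (chr18:39489729-39490067, top 29.6%). Region 2 had 21 fragments and a −log10 q of 10.6 in the control female list (chr18:39491472-39491678, top 39.3%), where it ended 171 bp from the TSS of Nr3c1-205. In the VEDS male list region 2 was 834 bp wide, had 38 fragments and a −log10 q of 15.8 (chr18:39490883-39491716, top 38.0%), and covered the TSS of Nr3c1-205 and Nr3c1-207. Region 4 thus ranked above region 2 in each list. Region 3, on the TSS of Nr3c1-203, was in the VEDS male list alone, with 26 fragments and a −log10 q of 6.99 (chr18:39490533-39490721, top 68.6%). As merged over the lists, all 3 promoter regions overlapped untranslated exons of the gene, while the control female peak of region 2 was intronic. In total, peaks covered 2 of the 9 TSS in the control female list and 5 in the VEDS male list. The most 5′ TSS, that of Nr3c1-209, lay 27.7 kb from the nearest peak in both. Region 1, 39.0 kb upstream of the gene record, was in the VEDS male list alone and near its lower end, with 8 fragments and a −log10 q of 2.57 (chr18:39558418-39558537, top 95.9%). Region 5, downstream of the gene, had 12 fragments and a −log10 q of 8.01 in the control female list (chr18:39389479-39389648, top 53.4%) and 19 fragments and a −log10 q of 9.16 in the VEDS male list (chr18:39389415-39389585, top 57.4%). It lay at the start of the antisense gene *Gm15337*, inside the peak in the VEDS male list and 54 bp from it in the control female list. The coding neighbor *Arhgap26* also had promoter peaks, 2 in each long list, all of them outside the 50 kb.

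Of the 12 control female receptor peaks, 10 overlapped a VEDS male peak by at least 1 bp and 2 did not, and over all control female peaks the share without an overlap was 4.96% (95% Wilson interval 4.67 to 5.26). In the other direction, 10 of the 16 VEDS male receptor peaks overlapped a control female peak, against 47.6% of all VEDS male peaks (47.1 to 48.1). The intervals cover counting error only. The 10 shared peaks ranked higher by median than the others of the same list. In the control female list they had 7 to 33 fragments (median 10.5) and a median rank in the top 61.3%, and the 2 others, *Esr1* region 1 and *Pgr* region 5, had 5 and 6 fragments and were in the top 98.8% and 91.1%. In the VEDS male list the shared peaks had 12 to 89 fragments (median 26) and a median rank in the top 37.1%. The 6 others had 8 to 26 fragments (median 14.5) and a median rank in the top 71.5%. Ranges of fragments thus overlapped in the VEDS male list and did not in the control female list. With a reciprocal overlap of 50% required, 7 peaks of each list were shared.

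*Nr3c2* and *Esr1* had the lowest peak densities of the 5 loci in both long lists, and their loci were also the longest, at 445.6 and 494.0 kb against a median of 117.0 kb over all coding genes. Per 100 kb of gene body and flanks, the control female list had 0.224 peaks at *Nr3c2* and 0.607 at *Esr1*, against 1.44 at *Nr3c1*, 1.72 at *Oxtr* and 1.78 at *Pgr*. The median over all coding genes was 1.41 (quartiles 0 and 2.87), and 27.4% of coding genes had a density at or below that of *Nr3c2*, nearly all of them with no peak (27.0%). In the VEDS male list *Nr3c2* and *Esr1* had the same 0.224 and 0.607, while *Nr3c1* had 2.39, *Pgr* 2.37 and *Oxtr* 2.58, next to a median of 2.59 (quartiles 0.795 and 4.95). The share of coding genes at or below the receptor was 20.1% for *Nr3c2* and 22.4% for *Esr1* in that list, where 19.8% had no peak. In the control female list all 5 densities lay below the upper quartile, and no locus could lie below the lower quartile of 0. In the VEDS male list *Nr3c2* and *Esr1* lay below the lower quartile, at the same densities as in the control female list.

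**Figure D4:**
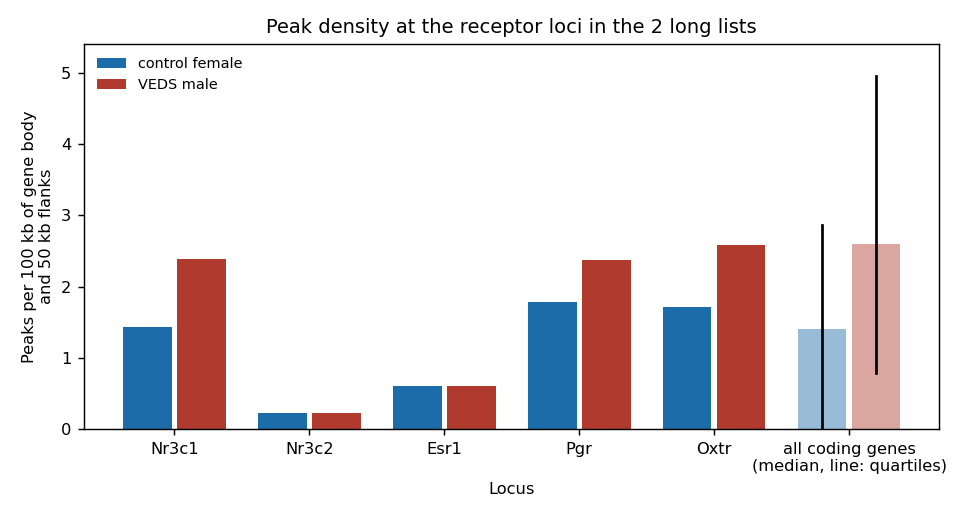
Peaks per 100 kb of gene body and 50 kb flanks (vertical axis) at each receptor locus in the control female (blue) and VEDS male (red) lists. Pale bars are the medians over 21938 coding genes and black lines their quartiles. The bars of *Nr3c2* (0.224) and *Esr1* (0.607) are the same height in both lists and lie below the medians of 1.41 and 2.59.

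The 50 kb limit fell between some neighboring peaks. At *Esr1* the first peak beyond it was 51.9 kb from the gene in the control female list (−log10 q 2.74) and 52.0 kb in the VEDS male list (7.75), and the farthest one inside was 36.3 and 35.8 kb away. At *Nr3c1* the first VEDS male peak beyond the limit was at 50.3 kb (−log10 q 6.27), and the first control female one at 75.3 kb (5.53). At *Oxtr* a peak of rank 352 in the control female list and 1390 in the VEDS male list lay 71.2 kb from the gene. The next peak outside *Nr3c2* was 164.0 kb from the gene in the control female list and 139.0 kb in the VEDS male list, and for *Pgr* it was 857.0 kb and 116.0 kb away. These distances were not set beside those of other genes. The peak density of the *Pgr* locus was above the median of coding genes in the control female list and below it in the VEDS male list.

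Consensus sequences were searched on both strands in 300 bp around each summit, in 12 control female and 16 VEDS male receptor windows and in all 21115 and 41348 windows of these lists. The palindromic hormone response element of the glucocorticoid, mineralocorticoid and progesterone receptors (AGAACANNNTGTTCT) had no exact match in a receptor window, and it was rare in all windows, at 0.0379% (control female) and 0.0435% (VEDS male). The closest receptor window matched 9 of its 12 fixed letters (*Nr3c1* region 5, control female), which 14.0% of windows in that list did as well or better. This closest match lay outside the called peak. The estrogen response element (GGTCANNNTGACC) also had no exact match, against 0.0805% and 0.0411% of all windows. Its closest match was 9 of 10 fixed letters at *Pgr* region 5, as close as in 1.07% of control female windows, and it lay outside the called peak. No match means only that these letters are not in these windows. The single hexamer AGAACA was present in 1 control female window (19.0% of all windows) and in 3 VEDS male windows (20.7%), those of *Pgr* region 4 in both lists and of *Nr3c1* regions 1 and 5 in the VEDS male list. The hexamers of *Nr3c1* regions 1 and 5 lay outside the called peaks, and those of *Pgr* region 4 inside. In the sequence shown for *Pgr* region 4 the hexamer starts at positions 32 and 89, in the complementary form, and the first of these is outside the control female window. The hexamer AGGTCA of the estrogen receptor was present in 4 (15.4%) and 2 (16.6%) windows. It lay inside the called peak at *Nr3c1* region 2 in both lists and at *Esr1* region 1 in the control female list. It lay outside at *Pgr* regions 4 and 5 (control female) and *Nr3c1* region 1 (VEDS male).

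GC boxes (GGGCGG) were found in 6 control female and 8 VEDS male receptor windows, against 40.0% and 29.7% of all windows, and CCAAT boxes in 6 and 6, against 36.8% and 33.7%. GC boxes were found in the windows of every promoter region of *Nr3c1*, *Nr3c2* and *Pgr*, and the promoter region of *Oxtr* had none. Away from promoters of the receptors, they were found in *Esr1* region 3 and *Nr3c1* region 5 in both lists. The box of *Pgr* region 2 lay outside the called peak. So did those of *Pgr* region 1 and *Nr3c1* region 5 in the control female list. CCAAT boxes in the control female windows were in *Nr3c1* region 2 and *Nr3c2* region 1 among promoters, and in *Esr1* regions 1 and 3, *Pgr* region 4 and the *Cav3* promoter. The one of *Pgr* region 4 lay outside the called peak. *Nr3c1* region 4 held 4 GC boxes in each list at a GC content of 77.7% and 78.7%. The AP-1 site (TGAGTCA), which 11.6% of windows held in both lists, was found in 1 receptor window per list, that of *Esr1* region 3, at chr10:4621026-4621032 (positions 40 to 46 of the sequence shown). The narrower control female peak started just past this site, which the VEDS male peak contained, and the summits lay 120 and 111 bp away. MEF2, which binds A/T-rich sites in muscle genes, had matches in 2 control female (5.56% of all) and 3 VEDS male (5.79%) receptor windows. These were *Esr1* region 1 and the *Cav3* promoter in the first, and *Pgr* regions 3 and 4 and the *Cav3* promoter in the second. TEAD (GGAATG), the DNA partner of YAP, had matches in 4 (18.1%) and 6 (19.0%) windows, all outside the receptor promoters. The CArG box of SRF, a regulator of contractile genes, was found once, in *Oxtr* region 1 (3.1% of VEDS male windows), at positions 201 to 210 of the sequence shown, a window that also held TEAD matches at positions 44 and 114. The remaining families were matched in few receptor windows. The repressor ZEB1 (CAGGTG) had 2 in each list, against 13.3% of all control female and 15.0% of all VEDS male windows. RUNX factors (TGTGGT) also had 2 in each, where all windows gave 14.9% and 16.7%. A single receptor window per list matched the ETS factors (CCGGAAG), next to 10.3% and 7.28% overall. Likewise 1 window per list matched GATA factors (AGATAA), next to 7.78% and 9.18% overall. The same held for forkhead factors (TGTTTAC), with 3.15% and 3.34% overall. CRE (TGACGTCA, 2.59% and 1.78%) and NFI (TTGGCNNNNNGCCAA, 0.0521% and 0.0556%) had none. A match is a description of the sequence and not a bound site.

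**Figure D5:**
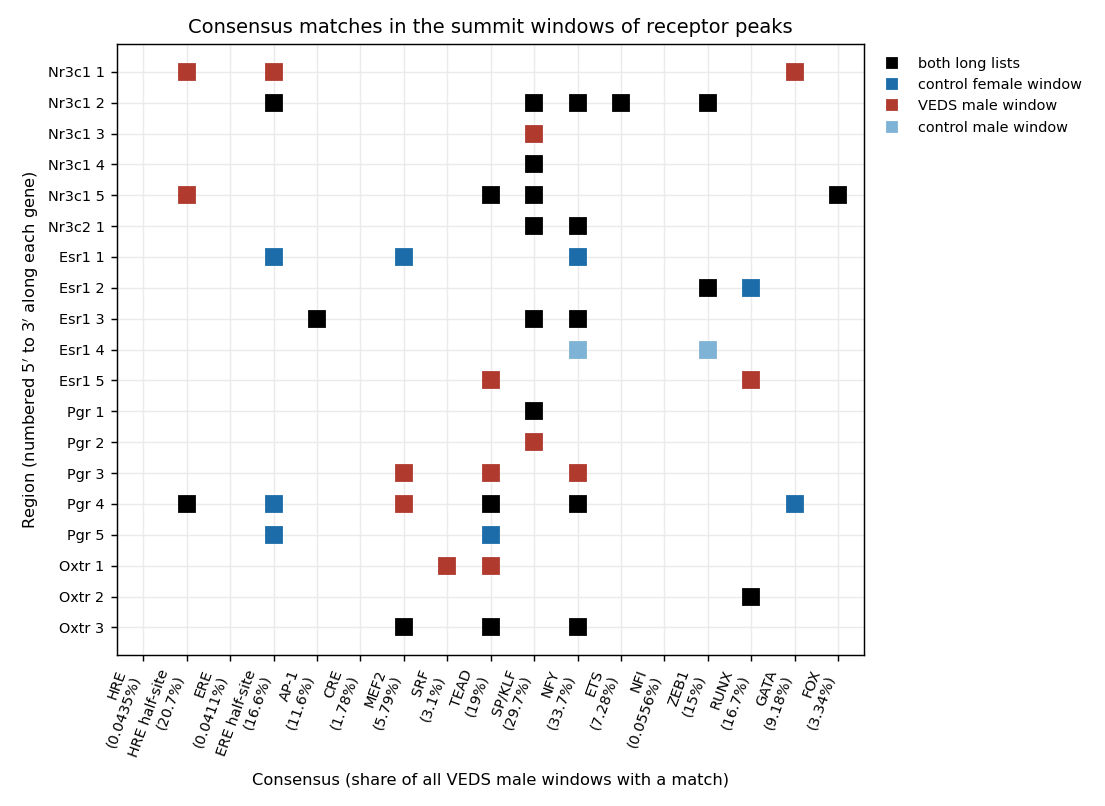
Consensus matches (columns, with the share of all VEDS male windows that hold a match) in the summit windows of the 19 regions (rows). Black squares are regions with a match in the windows of both long lists, and colored squares regions with a match in the window of 1 list. Both palindromes (HRE and ERE) have empty columns, GC boxes (SP/KLF) are at the promoters of *Nr3c1*, *Nr3c2* and *Pgr* and also at *Nr3c1* 5 and *Esr1* 3, and TEAD squares are at regions other than the receptor promoters.

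Genes that act with the receptors mostly had promoter peaks in both long lists. All 7 chaperone genes (such as *Hsp90aa1*, *Hsp90ab1* and *Fkbp5*), which hold steroid receptors in a ligand-ready state, and all 9 coregulator genes (such as *Ncoa1*, *Ncor1* and *Ep300*) had one in each. *Stip1*, which links heat shock proteins, also had one in both short lists, and *Med1*, a subunit of the mediator complex, in the control male list. Likewise, all 9 textbook target genes of the steroid receptors (such as *Sgk1*, *Tsc22d3* and *Per1*, with *Fkbp5* counted here as well) had one. These shares are to be read beside the 47.4% and 58.5% of all coding genes. Enzymes that act on the ligands were mixed, with 3 of 6 in the control female list and 4 of 6 in the VEDS male list. *Hsd11b1*, which regenerates active glucocorticoid, and *Cyp19a1*, the aromatase that makes estrogen, had no promoter peak in either. *Hsd11b2*, which inactivates glucocorticoid and so keeps it from the mineralocorticoid receptor, had one in the VEDS male list alone, and *Lnpep*, which degrades oxytocin, had one in both.

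Of 7 genes of oxytocin and vasopressin signaling, the 2 G protein genes *Gnaq* and *Gna11* had a promoter peak in both long lists. The hormone genes *Oxt* and *Avp* and the vasopressin receptor genes *Avpr1a*, *Avpr1b* and *Avpr2* had none in any list, so that *Oxtr* was the single receptor of the pair of hormones with a promoter peak. Among 35 other nuclear receptor genes, 21 had a promoter peak in the control female list and 26 in the VEDS male list, and all 21 were among the 26. Over all coding genes the shares were 47.4% and 58.5% in these lists, and the 2 of 7 signaling genes are to be read beside them as well. *Esr2*, which encodes the second estrogen receptor, had none in either, like *Esr1*. The others without one in both were *Esrrb*, *Esrrg*, *Vdr*, *Rorb*, *Nr5a1*, *Nr5a2*, *Nr0b1* and *Nr0b2*. The 5 with one in the VEDS male list alone were *Rarb*, *Rxrg*, *Pparg*, *Nr2f1* and *Nr2f6*. None of these 35 genes had one in a short list.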

How the data were processed

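Only ATAC-seq peak lists were analyzed, 1 for each of 4 libraries. The authors prepared aortic nuclei, aligned the reads to mm10 (the aligner is not given in the sources used here), called narrow peaks with MACS2 (named in the submitters' processing notes) after removing duplicates by barcode and correcting the cut sites, and left out blacklisted regions. The deposited columns are a score (10 times −log10 q without decimals), a fold enrichment (ratio over local background) and −log10 p and −log10 q, all made by the authors per library and not comparable between lists. The fragment number at a summit was found by search for the 1 whole number that gave the deposited Poisson −log10 p. The background was set from the deposited fold (pseudocount of 1). The tolerance was 0.001, widened in proportion to −log10 p where that was large. The search succeeded for 97.8% to 99.9% of peaks and was tested on simulated data. Medians of 6 to 22 fragments stood in for depth, since library totals were not used here. They come from the summits of called peaks, so that they also depend on which peaks were called.

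Genes and TSS came from GENCODE vM21 on GRCm38, sequences and masked bases from the RefSeq copy of GRCm38. Promoters were within 3 kb of a TSS. Members and gene lists were chosen with earlier results of these data known. Genes named were the 5 receptors, genes starting in the loci, and list genes without a promoter peak where most of their list had one (or with one in a short list). Other names were added as examples after their values were seen, and 1 item of the lists is not reported here. Alternatives were −log10 q of at least 5 or 10, at most 50% masked bases, flanks of 10 and 100 kb, equal list size (504), other definitions of overlap, promoter and window, and leaving out each library. The tools were pandas 2.3.3, numpy 2.4.6, pysam 0.24.0, scipy 1.17.1 and matplotlib 3.10.9 under Python 3.11.15.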

Additional observations from a re-analysis of the deposited data

How the results depend on the processing

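No test was made, so that the alternatives bear on counts. Of 130 alternative values, 90 equalled the reported count or stayed within 1.5 times it. Many of the 90 were counts of 0 that stayed 0, which a stricter filter could not change. They concern receptor peaks in the VEDS female list and receptor promoters in both short lists. The palindromic hormone response element in the long lists was another such case. At −log10 q of at least 5, receptor peaks fell from 12 to 7 in the control female list and control regions from 13 to 8. At a minimum of 10, there were 3 control female, 0 control male and 7 VEDS male peaks, 2 receptors with a promoter peak in each long list (*Nr3c1* and *Nr3c2*), 3 shared peaks in each direction, and 3 control and 7 VEDS regions. AGAACA was then in 0 control female and 1 VEDS male windows, and TGAGTCA in 0 control female windows. With flanks of 100 kb, there were 20 control female and 29 VEDS male peaks, of which 18 and 17 were shared, and 21 control and 29 VEDS regions. Among the 504 highest peaks of each list, both long lists had 0 receptor peaks, 0 promoters, 0 shared peaks and 0 windows with AGAACA or TGAGTCA. The control male list had 0 receptor peaks with at most 50% masked bases, and 2 peaks whose nearest coding TSS was that of a receptor. Windows of 200 bp held AGAACA in 0 control female windows and TGAGTCA in 0 windows of either list, windows of 500 bp held AGAACA in 2 control female windows, and whole peaks held AGAACA in 1 VEDS male and TGAGTCA in 0 control female peaks. With 1 library left out, regions ranged from 1 to 12 in control and from 0 to 16 in VEDS. No paired analysis was made, since no test was run and the sexes were not compared. The short lists have few fragments per summit and, for control male, mostly repeat-masked peaks. Whether they reflect low depth or libraries that failed was not tested, and a missing peak in them was not interpreted.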
